A study of Mus musculus with 5 samples.

Results

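Hair keratins, the proteins that accompany them in the growing hair, and the transcription factors of follicle differentiation were examined in mouse dorsal skin, as a list of 42 genes in 4 groups: 10 of the inner root sheath, 5 of the companion layer, 19 of the hair shaft and 8 regulators. Each gene was represented by its brightest probe set, the one with the highest mean log2 intensity over all 5 arrays among those annotated to that symbol alone. Of the 42 genes, 40 had such a probe set, out of 18193 genes with one in the whole table, and *Krt85* and *Dsg4* were not analysed here. RNA was taken from 2 *Clock* mutant mice and 3 wild-type (WT) littermates at postnatal day 23, and each mouse was hybridised to 1 array of its own. Both groups had a C57BL/6J background per the study's methods. The labels call the first group *Clock* mutant and name neither the allele nor whether the mice were homozygous. Per the labels, histology placed every skin in telogen, when follicles rest. *Clock* mutant replicate 1 was the only male, so that sex, genotype and that array cannot be told apart in any value that rests on it. The comparison asks how skin of both genotypes differs at this age. The study's separate wild-type time course classes postnatal day 23 as early anagen, the start of follicle growth. The study also reports slower progression of *Clock* mutant follicles into anagen. In staging its *Bmal1* litters, it notes that males were in general slightly further along the cycle. It therefore matched littermates by gender when comparing genotypes. How near each arrayed skin was to anagen was not tested.

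The growing follicle is built of concentric sheaths. Cells leaving the matrix at its base become the hair shaft, which packs with hair keratins and cross-linked keratin associated proteins, or the inner root sheath, which moulds the shaft and hardens with its own keratins and trichohyalin, while the companion layer lets both slide along the outer root sheath. Shaft and inner root sheath are made in anagen, the growth phase. A telogen follicle holds a finished club hair above a resting germ, and the companion layer and bulge region keep keratins such as K6 and K75.

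Sequences just upstream of 6 of these genes are given first. They let the reader see the TATA element that many of the keratin genes share and that the regulators mostly lack. The RefSeq promoter table of build GRCm38.p6 held windows of 300 bases (250 before to 50 after each start) for 28 of the 40 genes. Shown are the 100 bases before the start of *Krt25* (chr11:99322952-99323051) and *Krt71* (chr15:101743098-101743197) for the inner root sheath, *Krt31* (chr11:100050552-100050651) and *Krtap8-1* (chr16:89487953-89488052) for the shaft, *Krt75* (chr15:101573905-101574004) for the companion layer and *Gata3* (chr2:9878601-9878700) for the regulators. All 6 lie on the minus strand, read 5′ to 3′ along the gene, and capitals mark TATAAA.
Krt25: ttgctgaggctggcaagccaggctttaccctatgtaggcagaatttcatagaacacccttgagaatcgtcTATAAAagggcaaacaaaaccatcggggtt
Krt71: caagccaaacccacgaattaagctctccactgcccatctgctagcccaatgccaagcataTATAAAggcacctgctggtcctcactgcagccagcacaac
Krt31: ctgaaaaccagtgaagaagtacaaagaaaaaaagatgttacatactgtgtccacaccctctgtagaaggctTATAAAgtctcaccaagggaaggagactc
Krtap8-1: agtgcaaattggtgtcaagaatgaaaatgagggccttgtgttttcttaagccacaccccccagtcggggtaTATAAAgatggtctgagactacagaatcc
Krt75: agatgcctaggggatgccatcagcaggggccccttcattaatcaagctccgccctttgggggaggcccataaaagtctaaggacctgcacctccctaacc
Gata3: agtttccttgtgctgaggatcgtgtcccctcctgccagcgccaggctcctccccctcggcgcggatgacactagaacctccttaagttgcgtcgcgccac

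The letters TATAAA, searched on both strands, occurred in the windows of 7 of 10 inner root sheath genes, 9 of 12 shaft genes, 1 of 5 regulators and not in that of *Krt75*, the 1 companion layer gene of the table. Some genes have several windows, and a gene was counted if any of its windows held the letters. Of 27025 genes, 15.7% did (13.62% of 32851 windows). This and the other shares over all genes and windows leave out 1 chromosome, which holds none of the listed genes with a probe set. On the gene's own strand, beginning 20 to 40 bases before the start (limits chosen after the windows were seen), TATAAA stood in 5 of 10 inner root sheath genes, 5 of 12 shaft genes and 0 of 5 regulators, against 2.41% of all genes (1.994% of windows). It began 30 bases before the start in *Krt25*, 40 in *Krt71* and 29 in both *Krt31* and *Krtap8-1*. The E-box CACGTG, the core letters that CLOCK and its partner BMAL1 recognise, occurred on either strand in the windows of *Krt75* and *Lef1* alone among the 28, against 8.09% of all genes (7.15% of windows). CTTTGA, the core that LEF1 and its relatives recognise, occurred on either strand in 2 of 10 inner root sheath genes, 7 of 12 shaft genes, 1 of 5 regulators and not in *Krt75*, against 18.2% of all genes (16.0% of windows). No motif contains another. A match describes the letters of these windows and no binding was measured.

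All 10 inner root sheath genes and 13 of 17 shaft genes were at least 2-fold higher in 1 of the 2 *Clock* mutant skins than in any other skin, while most companion layer genes and regulators lay close together on all 5 arrays. The median difference between genotypes (log2 intensity, *Clock* mutant minus WT) was 1.88 over the 10 inner root sheath genes and 1.70 over the 17 shaft genes with a probe set, or 0.94 for the shaft when 32 was added to each intensity to damp dim values. It was -0.14 over the 5 companion layer genes and 0.06 over the 8 regulators. Over the whole table it was 0.02 for the 12955 genes tested and 0.0057 for the 18193 genes with a probe set. Probe sets whose mean log2 intensity lay under the log2 of 56.7 were left untested. That left 29 of the 40 genes: 7 of the inner root sheath, 5 of the companion layer, 9 of the shaft and 8 regulators. With limma's moderated test and Benjamini-Hochberg adjustment over 27022 probe sets, 0 of the 29 passed an adjusted p of 0.05, as 0.0888% of all tested probe sets did (0.0148% higher and 0.074% lower in the mutant). At an unadjusted p under 0.05, 12 of the 29 were higher in the mutant and 1 was lower, against 4.09% and 6.71% of all tested probe sets. *Krtap14* and *Krtap15* passed the filter only through the high mutant array, which favours a higher mutant mean. The counts over tested genes are a description. Without the filter, 19 of 40 had an unadjusted p under 0.05 and 18 of them were higher, against 8.37% of all probe sets and 3.13% higher, and again 0 passed after adjustment. In whole skin, more cells of a type and more RNA per cell cannot be told apart.

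**Figure D1:**
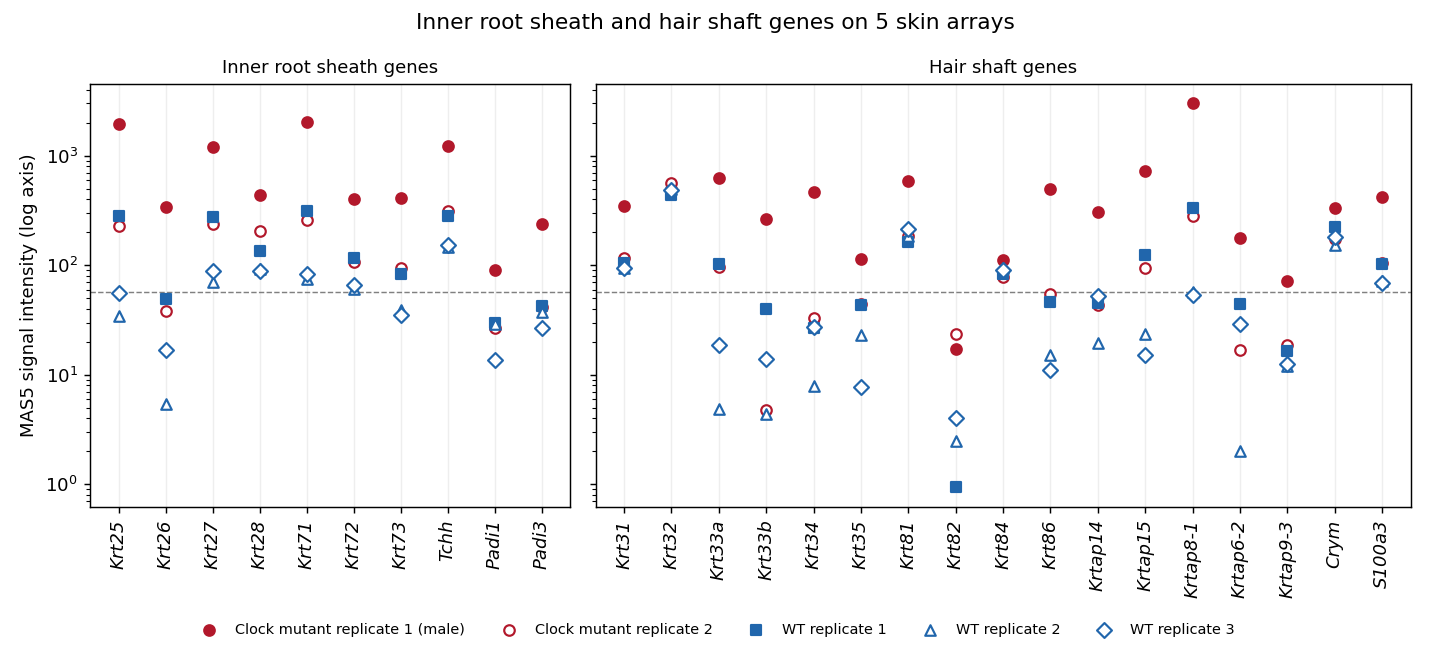
MAS5 signal intensity (log axis) of the 10 inner root sheath genes and 17 hair shaft genes on each of the 5 arrays, 1 point per mouse, with the filter of 56.7 as a dashed line. *Clock* mutant replicate 1, the male, is the highest point for all 10 sheath genes and for 15 of 17 shaft genes, and the other mutant point lies among the WT points for most of them.

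The keratins of the inner root sheath come as type I and type II partners that assemble in pairs. *Krt25*, a type I keratin of all its layers, had intensities of 1932 and 226.8 in *Clock* mutant replicates 1 and 2 and of 282.9, 34.29 and 55.97 in WT replicates 1, 2 and 3. Replicate 1 of the mutant was far above the rest and replicate 2 lay inside the WT range. The means were 1080 ± 1206 (SD, n = 2) and 124.4 ± 137.7 (SD, n = 3), and the log2 difference of 3.02 had an SE of 0.97 (limma, adjusted p = 0.356). For *Krt27*, another type I partner, the intensities were 1190 and 238 in the mutant and 273.1, 70.31 and 88.61 in WT (log2 difference 2.16, SE 0.69, adjusted p = 0.355). Here too the groups overlapped, since WT replicate 1 exceeded mutant replicate 2. *Krt26*, below the filter, gave 338.3 and 37.95 in the mutant and 48.81, 5.365 and 16.84 in WT, with the same order of arrays.

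*Krt28* was the type I keratin whose groups did not overlap. Its intensities were 435.4 and 206.8 in the mutant and 135, 91.74 and 88.25 in WT. The log2 difference of 1.54 (SE 0.32, adjusted p = 0.181) had the lowest adjusted p of the 29 tested genes, and both mutants stood above all WT skins.

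Among the type II keratins, *Krt71* read 2024 and 256.4 in the mutant and 310.7, 75.49 and 82.58 in WT (log2 difference 2.53, SE 0.82, adjusted p = 0.362). *Krt72*, made in the cuticle of the sheath, read 405.2 and 107.6 in the mutant and 117, 60.48 and 66.3 in WT (log2 difference 1.43, SE 0.51, adjusted p = 0.380). In both, mutant replicate 2 fell between WT replicate 1 and the other WT skins. *Krt73*, a second cuticle keratin, read 413.9 and 95.04 in the mutant and 83.51, 39.33 and 35.16 in WT (log2 difference 2.03, SE 0.59, adjusted p = 0.311), with no overlap although the gap between mutant replicate 2 and WT replicate 1 was small.

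The non-keratin genes of the sheath were also highest on mutant replicate 1, with the other arrays in a different order for each. *Tchh* encodes trichohyalin, which binds sheath keratins and is cross-linked as the cells harden. It read 1225 and 314.8 in the mutant and 280.3, 147.3 and 154.7 in WT, without overlap (log2 difference 1.74, SE 0.49, adjusted p = 0.310). *Padi1* and *Padi3* encode enzymes that convert arginine to citrulline in such proteins, and both lay below the filter. *Padi3* read 238.5 and 42 in the mutant and 42.68, 37.48 and 26.93 in WT. *Padi1* read 91.06 and 26.67 in the mutant and 29.68, 29.39 and 13.78 in WT, so that for both enzymes mutant replicate 1 stood alone.

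Across the 10 sheath genes, mutant replicate 1 was 2.11 to 8.92 times (median 4.68) as bright as mutant replicate 2 and 3.07 to 6.93 times (median 4.66) as bright as the highest WT array. Mutant replicate 2 was 0.777 to 1.53 times (median 0.909) the highest WT array. It lay inside the WT range for 7 of the 10 genes, against 46.9% of all tested genes, and above it for *Krt28*, *Krt73* and *Tchh*, as for 27.8% of tested genes. Among all 18193 genes with a probe set, mutant replicate 2 lay inside for 8958 and above for 4638. The WT skins differed among themselves by 1.53 to 9.10 times, and WT replicate 1 was the highest of the 3 for 10 of 10 sheath genes. It was the highest for 36.6% of tested genes and for 5912 of the 18193 genes with a probe set. The sheath genes thus varied among mice within each genotype.

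The hair shaft genes with the most signal split into a few that were even across the arrays and a larger number that followed the sheath pattern. *Krt32*, a type I hair keratin of the cuticle, read 501.2 and 563.4 in the mutant and 434.3, 494.5 and 484.8 in WT (log2 difference 0.18, SE 0.13, adjusted p = 0.636). Its groups did not overlap, but the gap was small and mutant replicate 2 was the higher mutant skin. *Krtap8-1*, a glycine and tyrosine rich keratin associated protein, read 3034 and 281.4 in the mutant and 336.6, 56.89 and 53.14 in WT. Its log2 difference of 3.20 (SE 0.99, adjusted p = 0.343) rested on mutant replicate 1, which was about as far above mutant replicate 2 as above WT replicate 1.

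*Krt81*, a type II keratin of the cortex, read 583.6 and 185 in the mutant and 162.1, 184.4 and 215.7 in WT (log2 difference 0.82, SE 0.40, adjusted p = 0.489). *Crym*, a thyroid hormone binding protein of the inner shaft, read 336.2 and 173.9 in the mutant and 221.2, 154 and 181.2 in WT (log2 difference 0.40, SE 0.28, adjusted p = 0.630). For both genes mutant replicate 1 was the highest array and mutant replicate 2 lay among the WT skins. The 95% intervals of both differences included 0.

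Of the shaft genes with an unadjusted p under 0.05, *Krt31*, a type I cortex keratin, read 344.6 and 117.1 in the mutant and 104.4, 94.62 and 93.85 in WT (log2 difference 1.04, SE 0.39, adjusted p = 0.395). *S100a3*, a calcium and zinc binding protein of the hair cuticle, read 424 and 104.4 in the mutant and 102.7, 72.29 and 68.5 in WT (log2 difference 1.40, SE 0.50, adjusted p = 0.378). Neither overlapped between groups, and in both mutant replicate 2 was barely above WT replicate 1. *Krtap15* read 720.4 and 94.33 in the mutant and 124.1, 23.81 and 15.17 in WT (log2 difference 2.88, SE 0.96, adjusted p = 0.371). *Krtap14* read 308.5 and 43.79 in the mutant and 44.89, 19.46 and 52.29 in WT (log2 difference 1.70, SE 0.74, adjusted p = 0.458). In these keratin associated protein genes mutant replicate 2 did not exceed the WT range.

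*Krt86*, a type II cortex keratin below the filter, read 495.9 and 54.46 in the mutant and 45.94, 15.19 and 10.99 in WT. Mutant replicate 1 was far above the rest, and mutant replicate 2 was just above WT replicate 1. The same isolated high array was seen for *Krt33a*, *Krt33b*, *Krt34*, *Krt35*, *Krtap6-2* and *Krtap9-3*, with 72.46 to 620.1 on mutant replicate 1 and 2.027 to 103.1 on the WT arrays. *Krt84* was even, at 78.63 to 111.9 on all 5 arrays. *Krt82* was dim throughout, with 17.2 and 23.79 in the mutant and 0.9382 to 4.07 in WT, where MAS5 values carry little information. Some of these keratins are close copies of each other, such as *Krt33a* and *Krt33b*, *Krt81* and *Krt86*, and *Krt6a* and *Krt6b*, and how far a probe set reads both members of a pair was not tested.

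Over the 17 shaft genes mutant replicate 1 was 0.723 to 54.5 times (median 4.06) mutant replicate 2 and 1.01 to 17.1 times (median 4.23) the highest WT array. Mutant replicate 2 had a median of 0.927 times the highest WT array. Both mutants exceeded all WT skins for 8 of 17 shaft genes and 3 of 10 sheath genes. They did so for 2424 of the 18193 genes with a probe set and for 12.8% of all tested probe sets. Of the 8 shaft genes, *Krt34*, *Krt35*, *Krt82*, *Krt86* and *Krtap9-3* lay below the filter. Mutant replicate 1 was the highest of the 5 arrays for 10 of 10 sheath genes, 15 of 17 shaft genes, 1 of 5 companion layer genes and 2 of 8 regulators. It was the highest for 30.1% of tested genes and for 4708 of the 18193 genes with a probe set. It exceeded each other array at least 2-fold for 10 of 10 sheath genes, 13 of 17 shaft genes, 0 of 5 companion layer genes and 0 of 8 regulators. That was so for 0.879% of the 18193 genes with a probe set and for 0.224% (29) of the 12955 tested. Of those 29 tested genes, 13 were listed sheath or shaft genes, 1 was another keratin (*Krt83*) and 5 were other keratin associated protein genes. No listed gene stood 2-fold above the rest on any of the other 4 arrays.

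**Figure D2:**
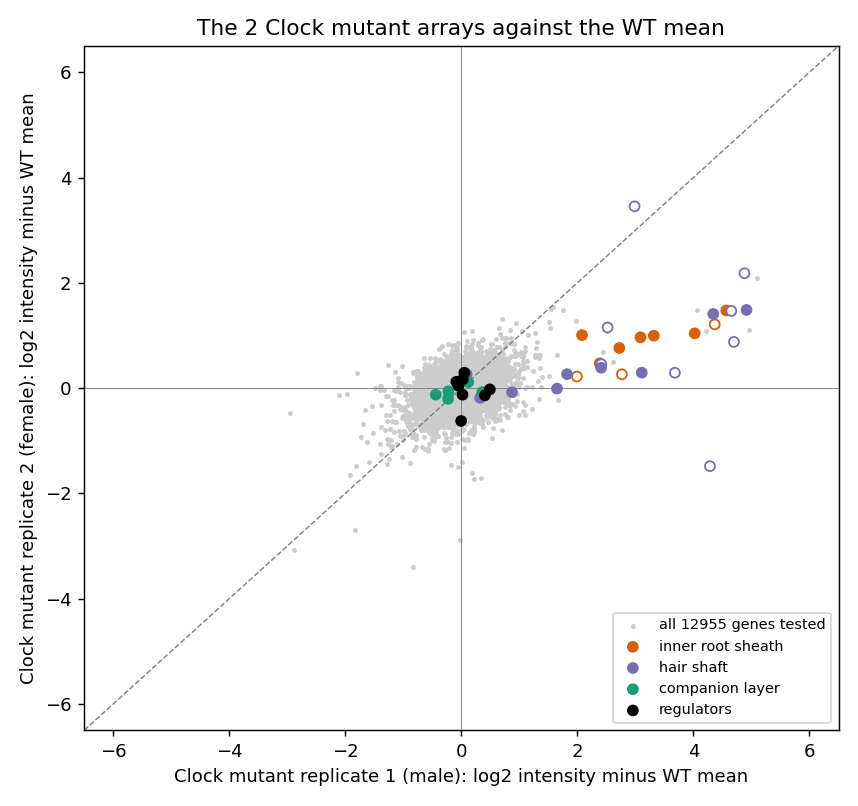
Log2 intensity minus the WT mean in *Clock* mutant replicate 1 (horizontal axis) and replicate 2 (vertical axis), 1 point per gene, for all 12955 tested genes in grey and the listed genes in colour, with hollow points for genes below the filter and the diagonal dashed. Sheath and shaft genes spread to the right and lie below the diagonal with 1 exception (*Krt82*) among those over 2 on the horizontal axis, companion layer genes and regulators stay near 0, and 1 tested gene (*Xist*) is beyond the axes.

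The companion layer is the single sheet of cells between the inner and outer root sheaths, and its keratins are also found in the outer root sheath and in stressed epidermis. *Krt6a*, a type II keratin, read 5545 and 6904 in the mutant and 8006, 7389 and 7218 in WT. Both mutant skins were below all WT skins, with a log2 difference of -0.28 (SE 0.10, 95% interval -0.51 to -0.06, adjusted p = 0.376). Its other 2 probe sets gave -0.36 and -0.37. *Krt16*, a type I partner of K6, read 95.11 and 96.69 in the mutant and 100.6, 112.1 and 122.7 in WT (log2 difference -0.22, SE 0.22, adjusted p = 0.743). These were the 2 of 5 companion layer genes with both mutants below WT, against 15.1% of all tested probe sets.

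*Krt17*, the other type I partner, read 2943 and 3300 in the mutant and 4036, 2958 and 3407 in WT (log2 difference -0.14, SE 0.13, adjusted p = 0.706). *Krt75*, the type II keratin that marks the layer, read 630.8 and 465.9 in the mutant and 507.7, 463.7 and 502.9 in WT (log2 difference 0.14, SE 0.15, adjusted p = 0.755). The groups overlapped for both. *Krt6b* read 75.57 and 75.24 in the mutant and 45.21, 53.11 and 140.1 in WT, where the spread came from WT replicate 3. *Krt75* was the only companion layer gene highest on mutant replicate 1, at 1.24 times the highest WT array. Its signal and that of *Krt6a* and *Krt17* were well over the filter on every array.

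**Figure D3:**
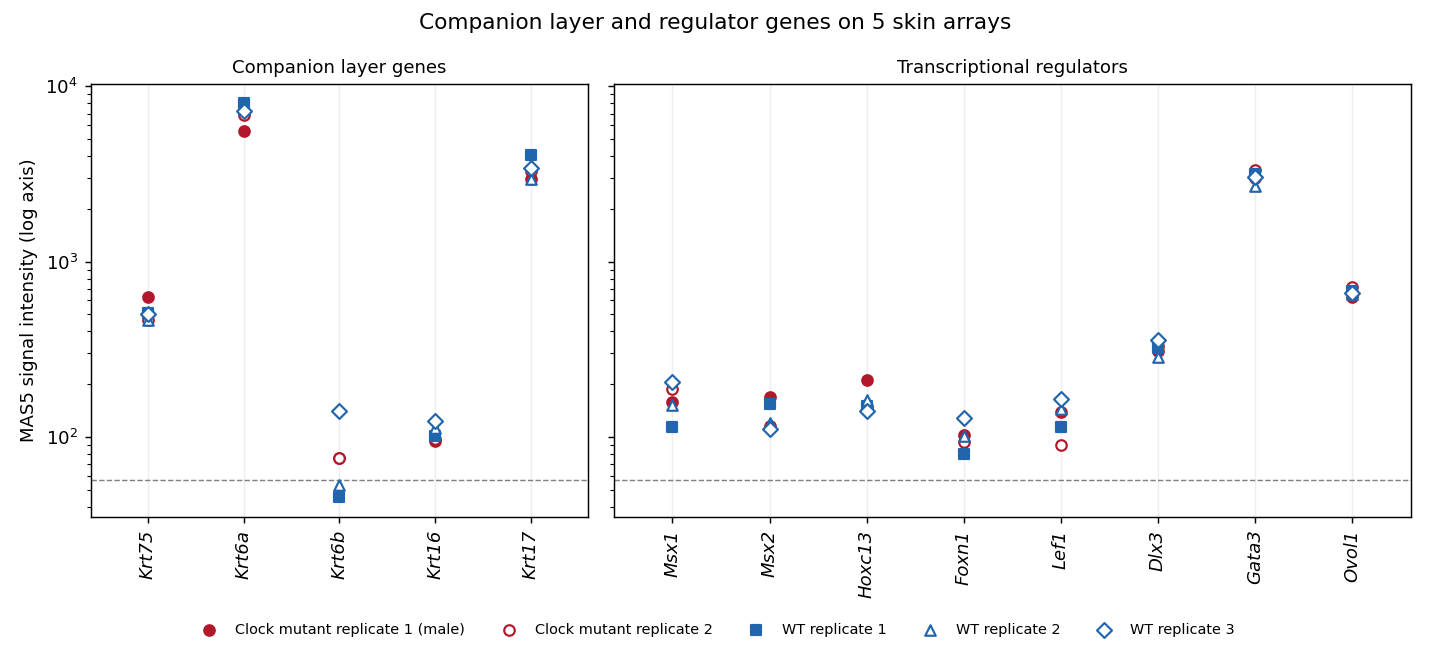
MAS5 signal intensity (log axis) of the 5 companion layer genes and 8 regulators on each of the 5 arrays, 1 point per mouse, with the filter of 56.7 as a dashed line. The points of a gene lie close together, from 5545 to 8006 for *Krt6a* and from 2715 to 3321 for *Gata3*, and *Krt6b* has the widest spread.

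The groups overlapped for 8 of 8 regulators, as they did for 72.1% of all tested genes. *Gata3*, which directs inner root sheath fate, read 3014 and 3321 in the mutant and 3152, 2715 and 3031 in WT, a log2 difference of 0.10 (SE 0.09, 95% interval -0.11 to 0.30, adjusted p = 0.736). *Ovol1*, an epithelial differentiation factor, read 624.2 and 719.9 in the mutant and 675.9, 651.6 and 660.7 in WT, a difference of 0.02 (95% interval -0.24 to 0.27). *Dlx3*, a homeobox factor needed for shaft and sheath formation, read 308.3 and 329 in the mutant and 319.7, 283.8 and 358.6 in WT (95% interval of the log2 difference -0.34 to 0.34). For all 3 the groups overlapped, and a p that misses the threshold does not show equal levels.

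*Hoxc13*, an activator of many hair keratin genes, read 211.1 and 147.7 in the mutant and 149.4, 162 and 140 in WT (log2 difference 0.23, SE 0.21, adjusted p = 0.713). It was one of the 2 regulators with mutant replicate 1 highest, the other being *Msx2*, a homeobox factor of the matrix, at 168.6 and 115.7 in the mutant and 154, 120.4 and 111.3 in WT. *Msx1*, its relative, read 158.2 and 186.8 in the mutant and 114.1, 151.3 and 205.6 in WT. *Lef1*, the Wnt effector of the shaft precursors, read 138.8 and 90.26 in the mutant and 113.5, 145.1 and 163.6 in WT (log2 difference -0.31, SE 0.26, adjusted p = 0.685). *Foxn1*, the factor missing in nude mice, read 102.8 and 92.9 in the mutant and 80.05, 101.2 and 128.4 in WT. Neither *Lef1* nor *Foxn1* was highest on mutant replicate 1, the array with the high shaft keratins. On that array *Hoxc13* and *Msx2* were 1.30 and 1.09 times the highest WT array, and the other 6 regulators lay at or below it.

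Since mutant replicate 1 was the only male, the female skins were also compared alone, 1 *Clock* mutant against 3 WT, with the lone mutant assumed to vary like the WT skins. The medians became 0.98 for the inner root sheath, 0.39 for the shaft, -0.08 for the companion layer and 0.01 for the regulators. All 10 sheath genes and 13 of 17 shaft genes had a positive difference, as did 9249 of the 18193 genes with a probe set. The female mutant lay inside the WT range for 7 of 10 sheath genes and above it for 3. For the 17 shaft genes it lay inside for 8, above for 8 and below for 1. Among all 18193 genes with a probe set it lay inside for 8958, above for 4638 and below for 4597. In limma 0 of the 29 tested genes passed the adjusted threshold, as 0.0481% of probe sets did, and *Krt28* alone had an unadjusted p under 0.05 (log2 difference 1.01, SE 0.32, adjusted p = 0.644), against 6.47% of probe sets. *Krt25* had 1.47, *Krt71* 1.04 and *Krtap8-1* 1.48 in place of 3.02, 2.53 and 3.20. With mutant replicate 2 left out instead, 8 of the 29 genes passed the adjusted threshold, namely *Krt28*, *Krt71*, *Krt72*, *Krt73*, *Tchh*, *Krt31*, *Krt81* and *S100a3*, against 0.744% of probe sets. The medians were then 2.93 for the sheath and 2.99 for the shaft.

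The sex labels matched the sex-linked transcripts on all 5 arrays. Marker lists of other skin cells give the setting of the high array. Of 14 genes of proliferating cells, 13 were highest on mutant replicate 1, against 30.1% of tested genes. On that array 0 of the 14 were at least 2-fold above each other array. Their median log2 intensity minus the WT mean was 0.53 on mutant replicate 1 and -0.21 on mutant replicate 2. Summed intensities were 19760 and 13880 in the mutant and 14630 to 17100 in WT. *Mki67*, present in all cycling cells, read 1637 and 947 in the mutant and 1337, 1161 and 1119 in WT. Their part in the sheath and shaft values was not tested. On mutant replicate 1 the medians of the other 11 lists of cell types and housekeeping genes lay between -0.15 and 0.27. The 8 melanocyte genes had 0.02 and -0.49 in the mutant replicates, with summed intensities of 4870 and 3848 against 4575 to 5094 in WT. The keratins *Krt5* and *Krt14* of basal keratinocytes and *Krt10* of suprabasal ones were bright on every array, and their log2 differences between genotypes were -0.01 to 0.16. In the same suprabasal list *Krt1* had a difference of 0.31 (adjusted p = 0.340) and *Flg*, which encodes filaggrin, -0.26 (adjusted p = 0.376). The murine pyruvate carboxylase control probe sets are a check of RNA length. Their ratio of 3′ to 5′ signal was 54.1 on mutant replicate 1, 27.8 on mutant replicate 2 and 19.1 to 28.1 in WT. Their 5′ signal was dim, at 40.4 and 57.5 in the mutant and 77.9 to 97.3 in WT. On mutant replicate 1 it lay under the filter of 56.7, so that ratio is imprecise. The ratio of *Gapdh* was 1.05, 0.988 and 0.86 to 0.955, and that of beta-actin was 1.21, 1.23 and 1.14 to 1.2. The part of RNA length in the sheath and shaft values was not tested.

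**Figure D4:**
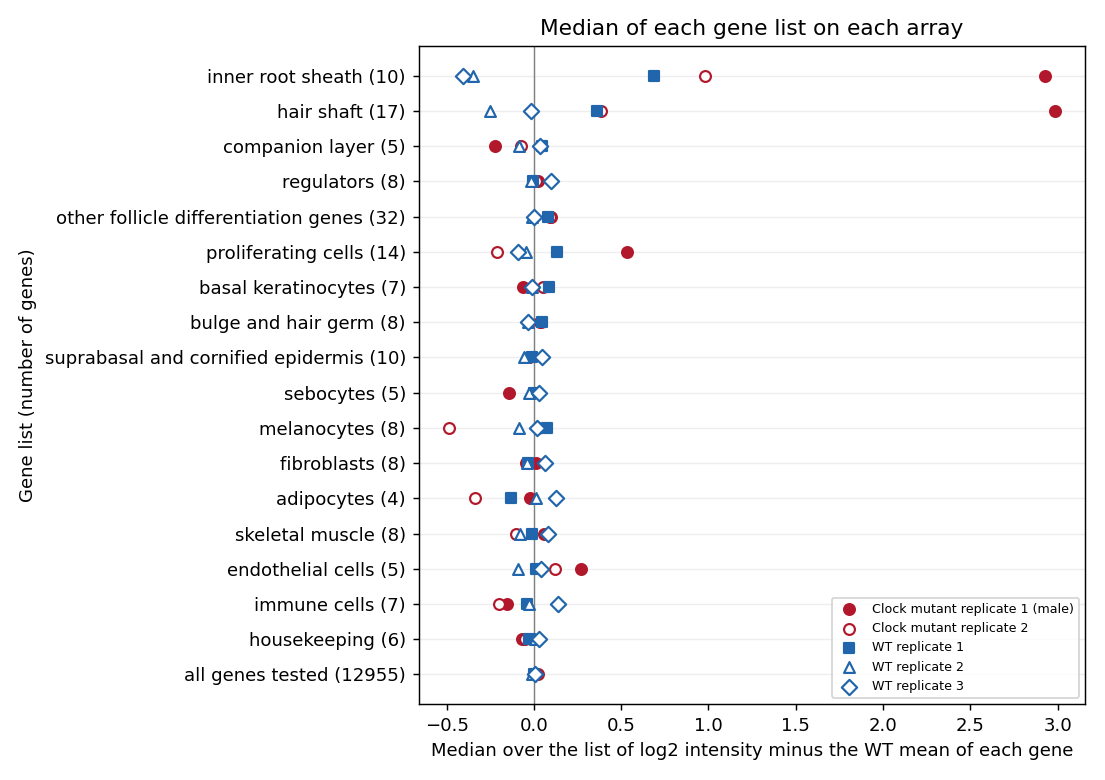
Median over each gene list of log2 intensity minus the WT mean of each gene (horizontal axis), for the listed groups, the other lists (number of genes in brackets) and all 12955 tested genes, 1 point per array. *Clock* mutant replicate 1 is at 2.93 for the inner root sheath and 2.99 for the hair shaft, the next largest value of that array is 0.53 for proliferating cells, and the companion layer and regulators are near 0 on all arrays.

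Other genes of follicle differentiation that are not among the 42 were taken from a separate list of 39, of which 32 had a probe set and 28 were tested. Their median difference was 0.09, with 21 positive and 11 negative, where 9280 of all 18193 genes with a probe set were positive. In limma 0 of the 28 passed the adjusted threshold, as 0.0888% of all tested probe sets did. At an unadjusted p under 0.05, 4 were higher in the mutant and 1 was lower, against 4.09% and 6.71% of all tested probe sets. *Krt83*, a hair cortex keratin, read 198.8 and 73.55 in the mutant and 65.97, 48.48 and 13.06 in WT (log2 difference 1.80, adjusted p = 0.398). It passed the filter only through mutant replicate 1, which favours a higher mutant mean. *Car6*, a secreted carbonic anhydrase, read 860.7 and 437.7 in the mutant and 429.4, 262.4 and 341.7 in WT (log2 difference 0.86, adjusted p = 0.369). In both, the groups did not overlap and mutant replicate 1 was well above the other mutant. *Mt4*, a metallothionein of stratified epithelia, read 2180 and 2136 in the mutant and 1667, 1495 and 1203 in WT (log2 difference 0.58, adjusted p = 0.216), and here both mutant skins were equally high. *Sostdc1*, a secreted inhibitor of BMP and Wnt signals, read 1720 and 1810 in the mutant and 1617, 1419 and 1455 in WT (log2 difference 0.24, adjusted p = 0.423). *Bmp4*, a BMP ligand of the dermal papilla, read 1029 and 943.1 in the mutant and 1379, 1185 and 1287 in WT (log2 difference -0.38, adjusted p = 0.300), with both mutant skins below all WT skins. For *Mt4*, *Sostdc1* and *Bmp4*, both mutant replicates lay close to each other and outside the WT range.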

How the data were processed

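Skin RNA was hybridised to Affymetrix whole-genome mouse arrays. The authors deposited MAS5 signal intensities on a linear scale, scaled to a trimmed mean of 500.0 on each array. The MAS5 version is not given in the sources used here. MAS5 subtracts mismatch signal, which makes low intensities noisy. Genes were named from the platform annotation (34945 of 45037 probe sets had 1 symbol), and 40 of 40 Entrez identifiers of the genes described matched RefSeq.

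A floor of 1 was applied to the intensities (2441 values lay under it) before the log2 transform. The dimmest 18015 probe sets, with a mean log2 intensity below the log2 of 56.7 (the 40th percentile), were not tested, and 27022 were. The test was limma 3.58.1 in R 4.3.3 (intensity trend, two-sided, Benjamini-Hochberg over all tested probe sets, threshold 0.05), checked on simulated data. The replicates are separate mice per the labels. Median intensities were 106 to 118.1 and correlations between arrays 0.950 to 0.960. The number of arrays limits the precision.

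Every listed gene is named. Values per array were given for the 4 genes of highest mean intensity in each group, those with an unadjusted p under 0.05 and at least 1 gene below the filter, and any others were chosen after their values were seen. The genes and lists were chosen with earlier results of these data known. The alternatives were other scalings, filters and floors, averaging the probe sets of each gene, a robust prior, no intensity trend, a replicate block and each array left out in turn. Protein sequences were not used here.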

Additional observations from a re-analysis of the deposited data

How the results depend on the processing

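No inner root sheath gene changed direction under any alternative, and 0 listed genes passed the adjusted threshold in limma except with the replicate block or without *Clock* mutant replicate 2. Of all tested probe sets, 24 passed. The count was 10 without a filter, 6 with the mean of each gene's probe sets, 0 without an intensity trend (2631 at an unadjusted p under 0.05) and 0 to 201 with 1 array left out (13 without *Clock* mutant replicate 1, 201 without replicate 2, and 0 without WT replicate 2 or 3, with 1581 and 2194 at an unadjusted p under 0.05). With the replicate block 106 passed (0.392%), among them *Krt25*, *Krt27*, *Krt28*, *Krt71*, *Tchh*, *Krtap15* and *Krtap8-1* of the listed genes. The pairing rests on a number alone: deviations of same-numbered mice correlated at 0.01 and 0.10 over 2 pairs, and the block drops WT replicate 3 from the comparison.

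With 1 array left out, the medians ranged from 0.98 to 2.93 for the inner root sheath and from 0.39 to 2.99 for the shaft, both lowest without *Clock* mutant replicate 1 and highest without replicate 2, from -0.22 to -0.076 for the companion layer and from 0.01 to 0.10 for the regulators. Median centring gave -0.054 for the companion layer and 0.14 for the regulators, and the mean of probe sets gave -0.062 for the regulators. For the tested genes that changed sign, leaving out 1 array gave -0.076 to 0.36 for *Krt75*, -0.19 to 0.62 for *Krt6b*, -0.0090 to 1.65 for *Krt81*, -0.18 to 0.32 for *Krt84*, -0.077 to 0.87 for *Crym*, -0.037 to 0.39 for *Msx1*, -0.14 to 0.40 for *Msx2*, -0.025 to 0.49 for *Hoxc13*, -0.22 to 0.12 for *Foxn1*, -0.088 to 0.081 for *Dlx3* and -0.086 to 0.12 for *Ovol1*. *Krt33b*, below the filter, ranged from -1.48 to 4.28. For *Foxn1* quantile normalization gave 0.030, median centring 0.036 and the replicate block 0.12, and for *Dlx3* they gave 0.045, 0.085 and 0.081. *Ovol1* was -0.055 with the mean of probe sets. The cause of these moves was not tested. Low signal limits *Krt82*, *Padi1* and the other 9 genes below the filter, and 5 arrays limit every comparison.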

Other observations

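Keratin associated protein genes outside the list were examined after the values of the listed ones had been seen. Of 33 with a probe set, 31 were higher in the *Clock* mutant mean and 31 were highest on mutant replicate 1. Among all 18193 genes with a probe set, 9280 were higher in that mean and 4708 were highest on that array. Mutant replicate 1 exceeded each other array at least 2-fold for 20 of the 33, against 0.879% of the 18193. Their median log2 intensity minus the WT mean was 2.86 and 0.67 in mutant replicates 1 and 2 and 0.80, -0.22 and 0.21 in WT replicates 1, 2 and 3. Mutant replicate 2 was thus below WT replicate 1 in the median. Most of these genes (24 of 33) lay below the filter, and 0 of the 9 tested passed the adjusted threshold in limma (5 at an unadjusted p under 0.05, all higher, against 4.09% of all tested probe sets). Of these 5, *Krtap19-9b*, *Krtap22-2*, *Krtap4-6* and *Krtap6-5* passed the filter only through mutant replicate 1. That favours a higher mutant mean, and the count supports nothing. Over 26 keratin genes outside the list the median difference was 0.08, 6 were highest on mutant replicate 1, and *Krt83* was the 1 that exceeded each other array 2-fold there.

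*Gprc5d*, a receptor of the hair shaft cortex from the separate follicle list, read 214.5 and 50.03 in the mutant and 37.67, 12.77 and 18.23 in WT, with mutant replicate 1 far above the rest. The 10 tested genes that stood 2-fold out on mutant replicate 1 and encode neither a listed protein nor a keratin or keratin associated protein by name were *Gm10229*, *Prr9*, *Pinlyp*, *Gjb2*, *Myog*, *Pnmal2*, *Megf10*, *Mtmr7*, *Mycn* and *Mrln*. They were not chosen by a list.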
